A study of Mus musculus with 48 samples.

Results

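The Cyp4a genes encode cytochrome P450 enzymes that place a hydroxyl group on the last carbon of a fatty acid. All 6 members sought by gene name, Cyp4a10, Cyp4a14, Cyp4a12a, Cyp4a12b, Cyp4a31 and Cyp4a32, were found among the 29221 genes that the deposited read counts list for whole mouse liver. The rule for membership was the gene name. Every mouse of the study carried floxed Pparg alleles. Controls received AAV8-TBG-null and the mice labelled as knockouts AAV8-TBG-Cre, a vector in which the hepatocyte-active TBG promoter drives Cre recombinase, so that both arms had been given a virus and the remaining liver cell types were not the intended target. Male adults were fed a high-fat diet (HF) for 34 weeks, or HF for 18 weeks followed by 16 weeks of a high-fat, cholesterol and fructose diet (HFCF), with 6 controls and 6 labelled knockouts on each. Female adults were fed a low-fat diet (LF) or HF for 34 weeks, or the same HF to HFCF sequence, with 4 controls and 4 labelled knockouts on each. The virus was given after 16 weeks, before the change of diet. There was no male group on LF, and ages beyond "adult" are not in the labels.

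Omega-hydroxylation is the first step of a route that turns fatty acids into dicarboxylic acids. The hydroxylated acid is oxidised further by alcohol and aldehyde dehydrogenases, and the dicarboxylic acid is then shortened in peroxisomes. In mouse liver Cyp4a10 and Cyp4a14 are textbook targets of PPARA, the nuclear receptor that senses fatty acids and raises fat oxidation in fasting. Cyp4a12a is the main male enzyme that converts arachidonic acid to 20-HETE, a lipid that constricts blood vessels, and it is dependent on androgen and on the male pattern of growth hormone. Cyp4a12b is its near-copy, and Cyp4a31 and Cyp4a32 are near-copies of Cyp4a10 whose own roles are less well described.

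The 48 libraries, 1 per mouse, held 15338239 to 22072884 reads on genes, with a median of 17304085. Levels are given as CPM, the usual count scaled to a common library size, after the libraries were scaled to one another. Pparg itself was not lower in any labelled-knockout group by whole-gene counts, for example 41.1 ± 14.0 CPM against 34.2 ± 3.94 CPM in the controls (SD, n = 6 each) in HF males; a whole-gene count includes exons outside the deleted part, so it does not check the deletion. Cidec, a lipid droplet gene known to need PPARG in liver, averaged 5.22 CPM in the HF male labelled knockouts against 134 CPM in their controls. In LF females it averaged 6.06 CPM against 6.90 CPM, so the label is not checked there. In a list of such genes that includes Pparg itself, 8 of 11 tested were lower and 1 higher in HFCF male labelled knockouts, at an adjusted p under 0.05. In HFCF females 4 of 9 were lower and 1 higher. In HF females 0 of 8 passed, with a median log2 difference of -1.591, so the label rests on no called gene there. All 5 hepatocyte marker genes that were found had reads in every group, and male and female labels matched the sex-linked genes in all 48 libraries. Whole liver RNA was measured, so fewer cells of a type and less RNA per cell cannot be told apart. No label names a batch, a collection hour or whether the sexes were raised and processed together.

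The 6 genes stand in 1 cluster on mouse chromosome 4 (GRCm38), from the start of Cyp4a12a at 115299046 to the end of Cyp4a32 at 115621602. Cyp4a12a (ENSMUSG00000066071, chr4:115299046-115332815, plus strand) comes first and Cyp4a12b (ENSMUSG00000078597, chr4:115411624-115439034, plus) second. Cyp4a14 (ENSMUSG00000028715, chr4:115486200-115496142) lies on the minus strand. Cyp4a10 (ENSMUSG00000066072, chr4:115518264-115533649), Cyp4a31 (ENSMUSG00000028712, chr4:115563649-115579015) and Cyp4a32 (ENSMUSG00000063929, chr4:115600969-115621602) follow on the plus strand. Near-copies can share reads, so 60 bases of coding sequence around the codons of the haem-binding signature, where a P450 holds its haem iron, are shown for the 6 members. They were read from the reference genome 5′ to 3′ on the coding strand, each crosses 1 exon junction, and capitals mark bases that differ from Cyp4a10.
Cyp4a10: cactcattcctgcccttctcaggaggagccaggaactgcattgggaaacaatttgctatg
Cyp4a31: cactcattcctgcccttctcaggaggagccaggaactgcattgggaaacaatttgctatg
Cyp4a32: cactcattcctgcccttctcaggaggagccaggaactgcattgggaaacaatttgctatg
Cyp4a14: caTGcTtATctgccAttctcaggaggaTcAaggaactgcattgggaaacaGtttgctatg
Cyp4a12a: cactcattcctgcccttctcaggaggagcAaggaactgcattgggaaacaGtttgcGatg
Cyp4a12b: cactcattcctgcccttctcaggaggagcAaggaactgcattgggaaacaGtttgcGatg
In Cyp4a10 this stretch runs between chr4:115529487-115532558 and in Cyp4a14 between chr4:115487284-115489820, both with an intron inside. Cyp4a10, Cyp4a31 and Cyp4a32 are identical there, Cyp4a12a and Cyp4a12b are identical to each other with 3 bases unlike Cyp4a10, and Cyp4a14 has 9.

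Over their whole coding sequence Cyp4a12a and Cyp4a12b were 98.5% identical, with 23 of 1527 bases different. A second stretch of 60 coding bases is shown because it is one where the pair can be told apart, with capitals on the 4 bases that differ between them.
Cyp4a12a: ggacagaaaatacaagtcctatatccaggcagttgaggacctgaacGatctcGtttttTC
Cyp4a12b: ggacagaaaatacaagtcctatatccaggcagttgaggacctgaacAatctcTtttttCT
It lies between chr4:115326309-115326681 in Cyp4a12a and chr4:115432561-115432934 in Cyp4a12b, again across an intron. Of all stretches of 100 bases of the transcripts, untranslated ends included, 35.8% in Cyp4a12a and 36.2% in Cyp4a12b occur unchanged in another member. The shares were 12.7% in Cyp4a10, 20.1% in Cyp4a32, 8.2% in Cyp4a31 and 0% in Cyp4a14. Coding identity was 97.2% between Cyp4a10 and Cyp4a32, 96.6% between Cyp4a10 and Cyp4a31 and 75.3% between Cyp4a10 and Cyp4a14. How reads that match several members were treated is not given in the sources used here. At that length Cyp4a14 shares no stretch with the other members, whereas the split between Cyp4a12a and Cyp4a12b, and the levels of Cyp4a31 and Cyp4a32 beside the more abundant Cyp4a10, are uncertain.

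Cyp4a14 and Cyp4a10 were the dominant members in every group. Per kilobase of gene, the only scale on which genes can be compared, Cyp4a14 averaged 196 CPM per kb and Cyp4a10 142 CPM per kb in HF male controls. Cyp4a32 followed with 30.4, Cyp4a12a with 22.8, Cyp4a31 with 3.47 and Cyp4a12b with 1.93 CPM per kb. In LF female controls Cyp4a14 averaged 489 and Cyp4a10 376 CPM per kb, Cyp4a32 31.0 and Cyp4a31 6.55 CPM per kb. The order was different in males on HFCF, where Cyp4a10 stood above Cyp4a14 in both arms. Cyp4a10 averaged 113 CPM per kb in those controls and 142 in the labelled knockouts, and Cyp4a14 88.1 and 75.3 CPM per kb. All 6 genes together took between 0.0529% of reads on average in HF male labelled knockouts and 0.199% in LF female controls.

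**Figure D1:**
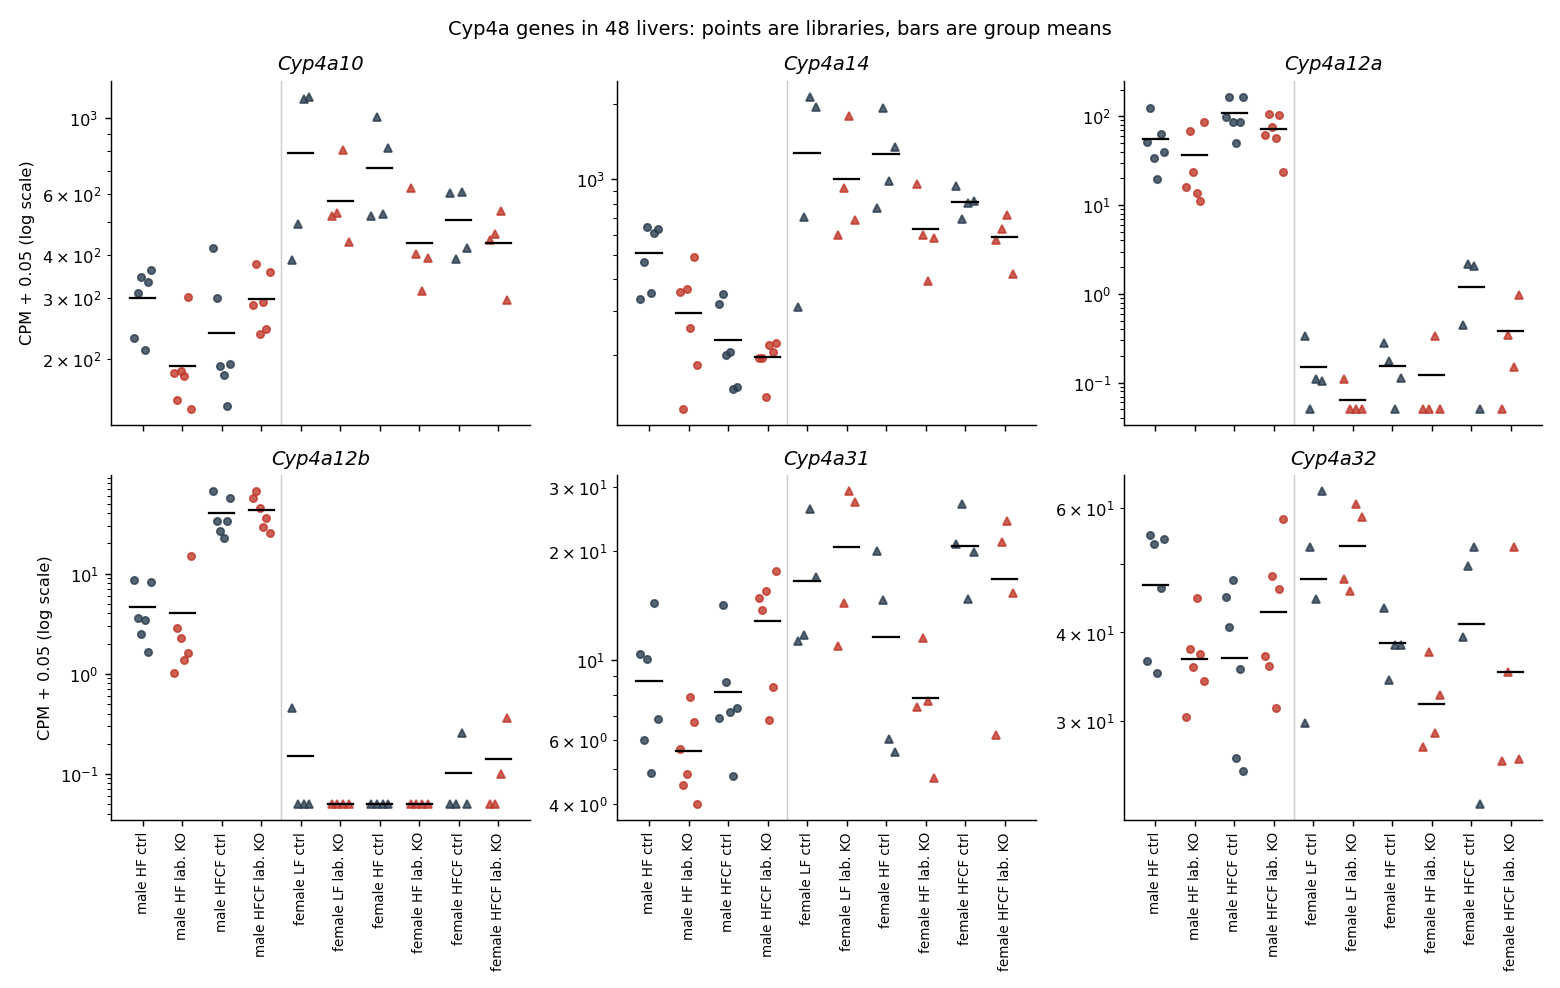
Level of each of the 6 members in every library, as CPM plus 0.05 on a log axis, by group; circles are males, triangles females, dark symbols controls, red symbols labelled knockouts and bars group means. Cyp4a10 and Cyp4a14 are higher in females, Cyp4a12a and Cyp4a12b sit near 0 in females, and Cyp4a12b stands higher in males on HFCF than in males on HF.

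Cyp4a10, the better known of the PPARA-inducible members, was highest in females. The 4 LF female controls had 386, 494, 1139 and 1154 CPM, and the 4 LF labelled knockouts 518, 530.0, 806 and 438 CPM. The HF female controls had 519, 1005, 527 and 821 CPM, and their labelled knockouts 628, 404, 314 and 393 CPM. On HFCF the female controls had 606, 389, 608 and 419 CPM, and the labelled knockouts 442, 461, 535 and 295 CPM. The last 2 of the 4 LF controls were the highest of the 48 libraries, while the first was lower than every HF control, so that the groups overlapped widely.

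In males Cyp4a10 ranged from 212 to 363 CPM in HF controls, with a median of 323 CPM, and from 142 to 303 CPM in HF labelled knockouts, with a median of 180 CPM. On HFCF it ranged from 146 to 419 CPM in controls (median 192 CPM) and from 236 to 378 CPM in labelled knockouts (median 289 CPM). In the order of the 10 group means, from LF female controls at 793 ± 410 CPM (SD, n = 4) to HF male labelled knockouts at 190 ± 57.9 CPM (SD, n = 6), all 6 female groups stood above all 4 male groups. No 2 neighbours in that order were free of overlap.

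Cyp4a14, the other strongly PPARA-inducible member, had the same female groups on top. The LF female controls had 311, 707, 2132 and 1937 CPM, and the LF labelled knockouts 603, 923, 1787 and 690 CPM. The HF female controls had 766, 1920, 987 and 1349 CPM, and their labelled knockouts 960.4, 599, 394 and 586 CPM. On HFCF the female controls had 943, 694, 804 and 823 CPM, and the labelled knockouts 576, 637, 721 and 421 CPM. The first LF control was the lowest of all 24 female libraries and the third the highest of all 48, in 1 group of 4.

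Male Cyp4a14 was highest in HF controls, at 335 to 649 CPM with a median of 541 CPM. It was 122 to 491 CPM in HF labelled knockouts (median 306 CPM), 147 to 351 CPM in HFCF controls (median 203 CPM) and 137 to 224 CPM in HFCF labelled knockouts (median 201 CPM). The 2 HFCF groups overlapped, and the HF controls overlapped HFCF controls in 1 library of each.

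Between the sexes, in HF controls, Cyp4a10 and Cyp4a14 were lower in males and Cyp4a12a and Cyp4a12b were higher in males. These 4 of 6 members passed the test, which was edgeR's quasi-likelihood test with Benjamini-Hochberg adjustment over all genes tested, called at an adjusted p under 0.05, as for every adjusted p below. Among all 14492 genes tested 18.1% were called in this comparison, 8.52% higher and 9.58% lower in males. Cyp4a10 was lower in males by a log2 difference of -1.26 (SE 0.20, adjusted p = 0.0020), and Cyp4a14 by -1.30 (SE 0.25, adjusted p = 0.0055). For both genes every male library was below every female one, and both calls held in each of 10 fits that left out 1 library. Cyp4a32 differed by 0.28 (adjusted p = 0.169) and Cyp4a31 by -0.40, neither called.

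In HF labelled knockouts the same 4 of 6 members were called, where 14.3% of all genes were, 7.32% higher and 7.02% lower in males. Cyp4a10 was lower in males by -1.20 (SE 0.21, adjusted p = 0.0028), again with no overlap. Cyp4a14 was lower by -1.11 (SE 0.33, adjusted p = 0.0389) with overlapping groups, and its call held in 4 of 10 fits that left out 1 library. It was lost without male labelled knockout 1, 4 or 6 or female labelled knockout 1, 2 or 4, with adjusted p of 0.0573 to 0.138.

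In HFCF controls 5 of 6 members were called, where 2.63% of all genes were, 1.3% higher and 1.34% lower in males. Cyp4a14 was lower in males by -1.84 (SE 0.23, adjusted p = 0.0009), with no male library above a female one. Cyp4a31 was lower in males by -1.33 (SE 0.24, adjusted p = 0.0112), also without overlap. Cyp4a10 was lower by -1.09 (SE 0.26, adjusted p = 0.0496), but the groups overlapped, and of the 10 fits that left out 1 library the call held only without male HFCF control 1 (adjusted p = 0.00167). That mouse had 419 CPM of Cyp4a10, the highest of its group. In HFCF labelled knockouts 3 of 6 members were called, where 5.4% of all genes were, 3.41% higher and 1.99% lower in males. Cyp4a14 was lower in males there by -1.59 (SE 0.16, adjusted p = 6.42e-05), without overlap, and Cyp4a10 differed by -0.54 (SE 0.17, adjusted p = 0.0771), called without female HFCF labelled knockout 4 (-0.69, adjusted p = 0.0318).

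**Figure D2:**
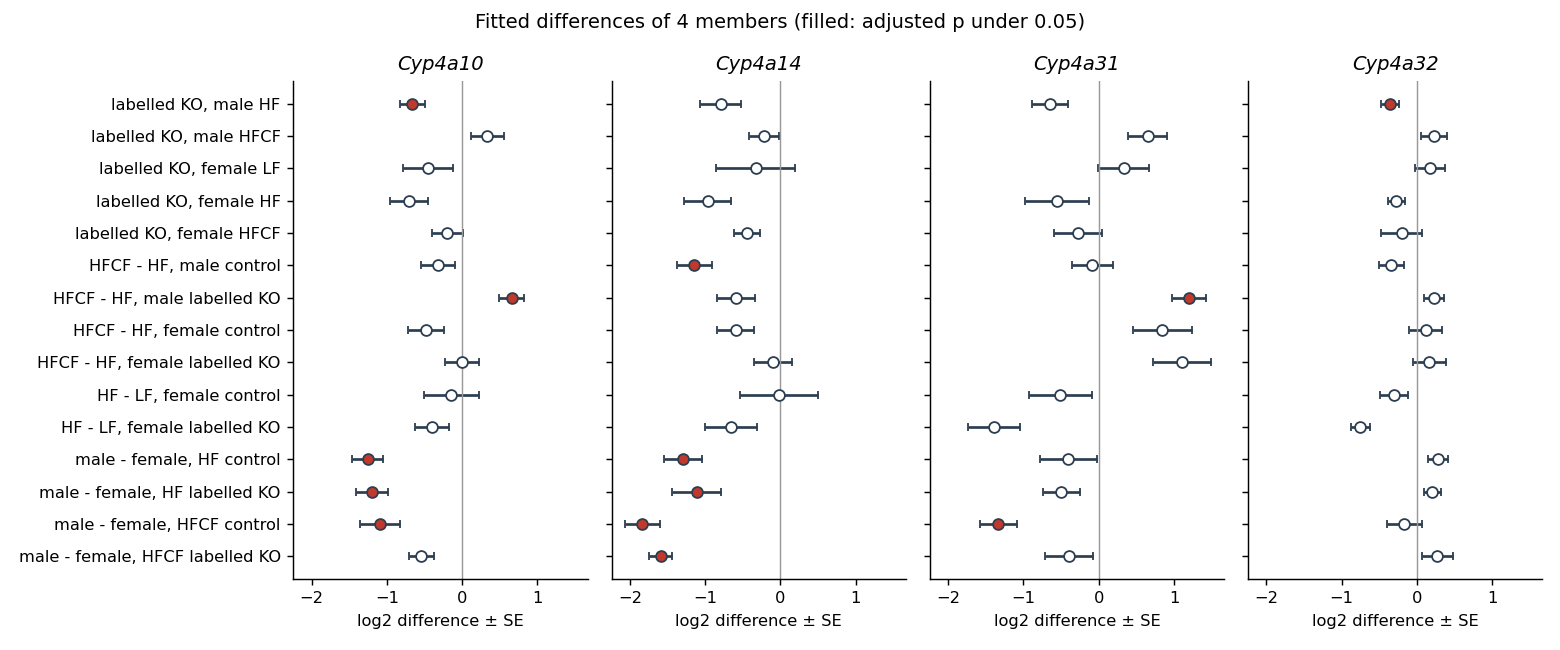
Log2 difference with its SE for Cyp4a10, Cyp4a14, Cyp4a31 and Cyp4a32 in 15 comparisons; filled symbols have an adjusted p under 0.05. The male minus female differences of Cyp4a14 are all below 0 and filled, and those of Cyp4a10 are all below 0 with 1 of 4 unfilled.

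Cyp4a12a, the male 20-HETE-forming enzyme, was near 0 in females and separated the sexes without overlap. Its level ranged from 19.7 to 124 CPM in HF male controls (median 45.4 CPM), from 11.2 to 87.3 CPM in HF labelled knockouts (median 19.8 CPM), from 50.1 to 166 CPM in HFCF controls (median 92.3 CPM) and from 23.5 to 105 CPM in HFCF labelled knockouts (median 69.0 CPM). The 4 LF female controls had 0.288, 0, 0.0602 and 0.0544 CPM and the 4 HF female controls 0.231, 0.125, 0 and 0.0620 CPM. In reads, HF male controls held 6177 and HF female controls 7, a ratio, after division by the total reads of each group, of 570.1 with a 95% interval of 277 to 1419. The ratio was 405 (186 to 1104) in HF labelled knockouts, 94.5 (76.8 to 118) in HFCF controls and 208 (142 to 319) in HFCF labelled knockouts. These intervals cover counting error only. The female groups with the most reads were those on HFCF, where the controls had 0.399, 2.11, 2.04 and 0 CPM and the labelled knockouts 0, 0.298, 0.0990 and 0.923 CPM.

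Cyp4a12b showed the same division at a lower level. It was listed with 0 reads in all 8 HF female libraries. By reads pooled over each group, the HF male controls were then at least 108-fold higher and the HF male labelled knockouts at least 88.6-fold higher. The limit that a count of 0 allows was taken as 3 reads over the female group. These limits and the intervals that follow cover counting error only. In the HF male labelled knockouts, mouse 6 held 230 of the 371 reads. On HFCF the female controls held 4 reads and the female labelled knockouts 7, and the ratios, again after division by total reads, were 769 (300.1 to 2823) and 469.6 (228 to 1169). Both Cyp4a12 genes were called in all 4 comparisons between the sexes. Markers of kidney, another tissue that makes Cyp4a12, summed to at most 0.191 CPM in any library, with 2 of 4 listed genes found.

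Beside these sex differences, the list of other male-biased liver genes had 13 of 14 tested members higher and 0 lower in HF male controls, and the female-biased list 0 higher and 15 of 16 lower. Clock genes also differed: in HF controls 3 of 14 were higher and 7 lower in males, in HF labelled knockouts 4 and 7, in HFCF controls 1 and 1, and in HFCF labelled knockouts 0 and 0. The clock genes' part in the sex differences was not tested. The share of all genes called was also lower on HFCF than on HF in both arms, as given above. From HF to HFCF the male minus female difference of Cyp4a14 went from -1.30 to -1.84 in controls and from -1.11 to -1.59 in labelled knockouts, and that of Cyp4a10 from -1.26 to -1.09 and from -1.20 to -0.54. Tested directly, none of these changes was called. For Cyp4a14 the fitted change was -0.53 (adjusted p = 0.468) in controls and -0.45 (adjusted p = 0.687) in labelled knockouts. For Cyp4a10 it was 0.17 (adjusted p = 0.833) and 0.69 (adjusted p = 0.373).

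Between diets in male controls, Cyp4a14 fell and Cyp4a12b rose on HFCF relative to HF, so that 2 of 6 members were called where 22.3% of all genes were, 13% higher and 9.31% lower. Cyp4a14 averaged 229 ± 86.4 CPM on HFCF and 509 ± 143 CPM on HF (SD, n = 6 each), a log2 difference of -1.15 (SE 0.23, adjusted p = 0.0039). Cyp4a12b ranged from 22.8 to 66.8 CPM on HFCF (median 33.4 CPM) and from 1.60 to 8.50 CPM on HF (median 3.45 CPM), with a log2 difference of 3.12 (SE 0.37, adjusted p = 0.000255). Every HFCF library was above every HF library. Both calls held in each of 12 fits that left out 1 library. Cyp4a12a averaged 108 ± 46.5 CPM against 55.1 ± 36.7 CPM, a difference of 0.98 (SE 0.37, adjusted p = 0.0711), and its call was gained without HF control 2 or HFCF control 1 (lowest adjusted p = 0.0111). Cyp4a10 differed by -0.32 (SE 0.22, adjusted p = 0.321), Cyp4a32 by -0.34 (SE 0.16, adjusted p = 0.143) and Cyp4a31 by -0.09, none called. Cyp4a10 was called without HFCF control 1, at -0.56 (adjusted p = 0.0176).

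Between diets in male labelled knockouts, Cyp4a10, Cyp4a31 and Cyp4a12b rose on HFCF, so 3 of 6 members were called where 41.7% of all genes were, 21.6% higher. Cyp4a10 averaged 299 ± 58.0 CPM on HFCF against 190 ± 57.9 CPM on HF (SD, n = 6 each), a difference of 0.66 (SE 0.17, adjusted p = 0.0052). Cyp4a31 averaged 12.7 ± 4.22 CPM against 5.56 ± 1.48 CPM, a difference of 1.20 (SE 0.23, adjusted p = 0.000664). The groups of both genes overlapped. Cyp4a12b ranged from 25.3 to 66.7 CPM on HFCF (median 40.6 CPM) and from 0.956 to 14.9 CPM on HF (median 1.90 CPM), without overlap, a difference of 3.46 (SE 0.51, adjusted p = 8.52e-05). These 3 calls held in each of 12 fits that left out 1 library. Cyp4a14 differed by -0.59 (SE 0.25, adjusted p = 0.0719), and was called without HF labelled knockout 2 or 6 (lowest adjusted p = 0.0080). Cyp4a12a differed by 0.97 (SE 0.48, adjusted p = 0.118), and by 1.43 without HF labelled knockout 6, when it was called (adjusted p = 0.0179). The direction of Cyp4a10 thus differed between the arms, but the difference itself did not pass the test, as given further on.

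The share of Cyp4a12b in the reads of the Cyp4a12 pair was larger on HFCF. In male HF controls Cyp4a12b made 14.2%, 2.76%, 6.84%, 14.7%, 2.48% and 17.2% of the pair's reads, and in HFCF controls 40.4%, 17.0%, 23.7%, 31.3%, 27.98% and 25.6%. Only the second HFCF control fell inside the range of the HF controls. In labelled knockouts the share ranged from 4.01% to 14.6% on HF and from 25.5% to 51.9% on HFCF, without overlap. The pair's sequences differ in few places, as shown above, so the share also rests on how shared reads were placed or left out. The reads counted for Cyp4a12a and Cyp4a12b were also summed, so that the split between them no longer mattered. Any shared reads left out of the counts would still be missing, and the sum does not bear on the share. The summed pair was higher on HFCF by a log2 difference of 1.32 (adjusted p = 0.0142) in controls and 1.50 (adjusted p = 0.0173) in labelled knockouts.

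**Figure D3:**
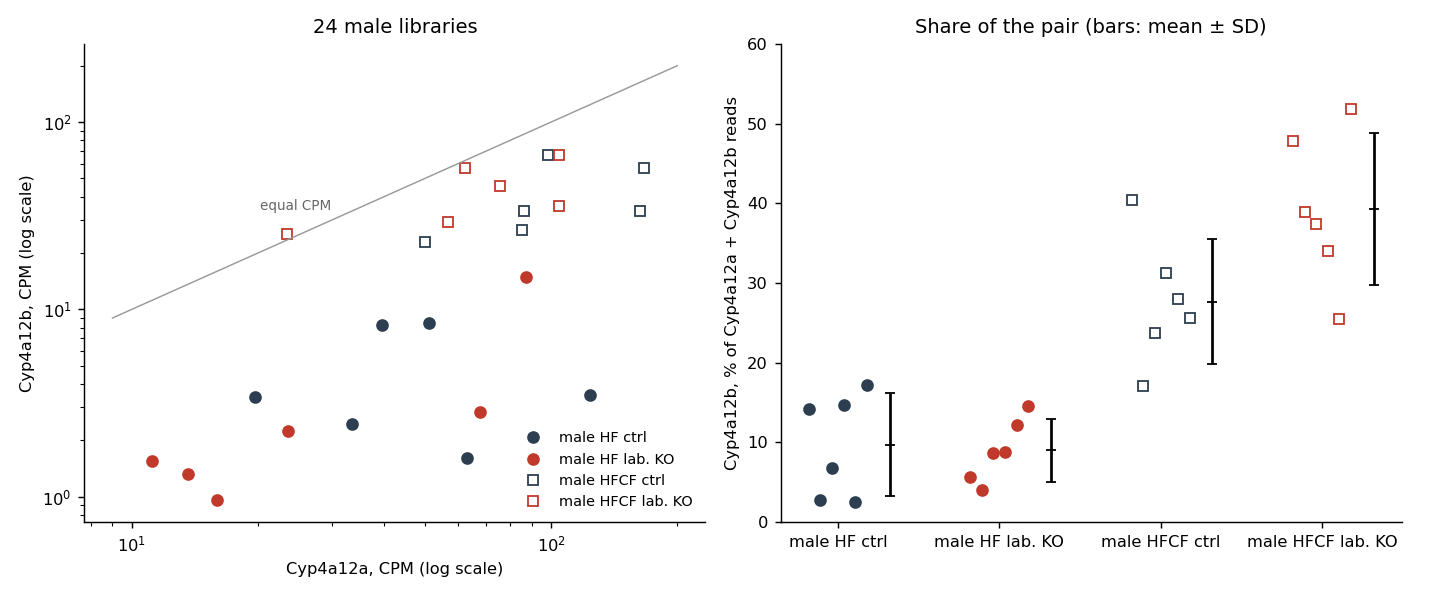
Left, Cyp4a12b against Cyp4a12a in CPM in the 24 male libraries on log axes, with the line of equal levels; right, Cyp4a12b as a percentage of the pair's reads by male group, with mean and SD. The HFCF libraries lie nearer the line of equal levels, with mean shares of 27.7% and 39.3% against 9.70% and 8.99% on HF.

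Cell type markers moved with these diet comparisons. Markers of recruited macrophages were called higher on HFCF for 4 of 4 genes in male controls and for 4 of 4 in male labelled knockouts, and cholangiocyte markers likewise. The macrophage markers summed to 112 to 223 CPM in HF male controls and 179 to 649 CPM in HFCF male controls. Hepatocyte markers summed to 58527 to 82843 CPM in HF controls and 37763 to 59309 CPM in HFCF controls, with 3 of 5 genes called lower. In labelled knockouts 5 of 5 hepatocyte markers were called lower on HFCF. The part of these shifts in the fall of Cyp4a14 was not tested. Cyp4a12b in both arms, and Cyp4a10 and Cyp4a31 in labelled knockouts, were called higher on HFCF in these comparisons. The part of the marker shifts in those rises was not tested either.

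Between diets in females, no member was called by edgeR, and Cyp4a12a and Cyp4a12b had too few reads to be tested. For HFCF against HF 0 of 4 tested members were called in controls, where 30.8% of all genes were, and 0 of 4 in labelled knockouts, where 14.5% were. At an unadjusted p under 0.05 there was 1 member in each, Cyp4a14 in controls at -0.60 (SE 0.25, adjusted p = 0.0892) and Cyp4a31 in labelled knockouts at 1.11 (SE 0.38, adjusted p = 0.0795). DESeq2 called 2 in controls, Cyp4a14 and Cyp4a12a, and 1 in labelled knockouts, Cyp4a31. For HF against LF 0 of 4 were called in controls, where 0.696% of all genes were, with 0 at an unadjusted p under 0.05 and 0 by DESeq2. In labelled knockouts 0 of 4 were called, where 0.155% of all genes were. There 2 were under 0.05 unadjusted, Cyp4a31 at -1.39 (SE 0.34, adjusted p = 0.122) and Cyp4a32 at -0.75 (SE 0.13, adjusted p = 0.0552), and DESeq2 called both. The 4 LF labelled knockouts had 47.5, 45.8, 60.9 and 58.2 CPM of Cyp4a32 and the 4 on HF 27.4, 37.5, 28.8 and 32.6 CPM, without overlap.

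For HFCF against LF in females 0 of 4 were called in controls, where 35.2% of all genes were, with 0 under 0.05 unadjusted and 1 by DESeq2, Cyp4a12a. In labelled knockouts 0 of 4 were called, where 12% of all genes were, with 2 under 0.05 unadjusted, Cyp4a14 and Cyp4a32, and 0 by DESeq2. Cyp4a14 differed there by -0.74 (adjusted p = 0.142) and Cyp4a32 by -0.57 (adjusted p = 0.109). The LF and HF female controls differed by -0.15 for Cyp4a10 and -0.02 for Cyp4a14, and for both genes the 2 groups overlapped.

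In male mice on HF, Cyp4a10 and Cyp4a32 fell in the labelled knockouts relative to controls, so 2 of 6 members were called where 18.5% of all genes were and 9.88% were lower. Cyp4a10 averaged 190 ± 57.9 CPM against 299 ± 63.2 CPM (SD, n = 6 each), a log2 difference of -0.66 (SE 0.17, adjusted p = 0.0139). The groups overlapped in 1 labelled knockout, the fifth, at 303 CPM, whose next neighbour had 184 CPM. The call held in each of 12 fits that left out 1 library, with adjusted p of 0.000884 to 0.0349. It was not held with all 10 groups in 1 fit (adjusted p = 0.0813). Cyp4a32 averaged 36.6 ± 4.77 CPM against 46.7 ± 9.09 CPM, a difference of -0.36 (SE 0.12, adjusted p = 0.0499). That call held in 3 of 12 fits that left out 1 library, those without HF control 1 or 4 or labelled knockout 4, and in 3 of 6 other alternatives.

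The other 4 members did not pass the test in HF males, although Cyp4a14 and Cyp4a31 came near it. Cyp4a14 averaged 296 ± 135 CPM against 509 ± 143 CPM, a difference of -0.79 (SE 0.27, adjusted p = 0.0535). It was called without HF control 1 or 4 or labelled knockout 5, with an adjusted p of 0.0188 at the lowest, and with no filter on low counts (adjusted p = 0.0285). Cyp4a31 differed by -0.65 (SE 0.24, adjusted p = 0.0735) and was called without HF control 2 or 4 or labelled knockout 4, at 0.0286 at the lowest. Cyp4a12a differed by -0.60 (SE 0.50, adjusted p = 0.451) and Cyp4a12b by -0.23 (SE 0.60, adjusted p = 0.83). Cyp4a12b rested on labelled knockout 6, at 14.9 CPM where the next highest had 2.84 CPM. Without that mouse the difference was -1.38 and was called (adjusted p = 0.0308). Hepatocyte markers were called higher in the labelled knockouts for 5 of 5 genes, summing to 85607 to 100956 CPM. Recruited macrophage markers were called lower for 4 of 4 and stellate cell markers for 3 of 5. Blood markers were called higher for 3 of 5, summing to 166 to 247 CPM in controls and 164 to 817 CPM in labelled knockouts. Their part in the differences was not tested.

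In male mice on HFCF 0 of 6 members were called, where 2.21% of all genes were, with 1 under 0.05 unadjusted and 0 by DESeq2. Cyp4a10 averaged 299 ± 58.0 CPM in the labelled knockouts against 238 ± 103 CPM in controls, a difference of 0.34 (SE 0.22, adjusted p = 0.549). Of the fits that left out 1 library, it was called in the one without HFCF control 1, at 0.57 (adjusted p = 0.0491). Cyp4a31 differed by 0.65 (SE 0.26, adjusted p = 0.244), Cyp4a14 by -0.22 (SE 0.21, adjusted p = 0.703) and Cyp4a12a by -0.60 (SE 0.33, adjusted p = 0.445).

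In females 0 of 4 tested members were called between labelled knockouts and controls on any diet. On LF 0% of all genes were called, 0 members were under 0.05 unadjusted, and DESeq2 called 0 members. On HF 0% of all genes were called, although 3 members were under 0.05 unadjusted. There Cyp4a14 differed by -0.97 (SE 0.31, adjusted p = 0.584), Cyp4a10 by -0.71 (SE 0.26, adjusted p = 0.599) and Cyp4a32 by -0.27 (SE 0.11, adjusted p = 0.611), and DESeq2 called 0 members. On HFCF 0.0534% of all genes were called, 1 member was under 0.05 unadjusted and DESeq2 called 0. That member, Cyp4a14, differed by -0.45 (SE 0.17, adjusted p = 0.548). In HF males the fitted differences were -0.66 for Cyp4a10, which was called, and -0.79 for Cyp4a14, which was not. Groups held 4 mice in females and 6 in males. The spread between mice over all genes, as a fitted coefficient of variation, was 0.21 in HF females and 0.138 in HF males. The reason for the unlike calls was not tested.

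Whether an effect differed between diets, sexes or arms was tested directly, and 0 members were called in any of the 7 such comparisons. The difference between the labelled knockout effects on HFCF and on HF in males was 0.98 for Cyp4a10 (SE 0.30, adjusted p = 0.0855), 1.28 for Cyp4a31 (SE 0.38, adjusted p = 0.0747) and 0.56 for Cyp4a32 (SE 0.22, adjusted p = 0.190), where 1.56% of all genes were called. These 3 members were under 0.05 unadjusted, and DESeq2 called 1, Cyp4a31. Cyp4a10 was called without HF labelled knockout 5 or HFCF control 1 (lowest adjusted p = 0.0152), and Cyp4a31 without HF control 2, HFCF control 2 or HFCF labelled knockout 4 (lowest adjusted p = 0.0351). In the same contrast, of 27 other PPARA targets 3 were called higher and 0 lower, among them Acot2, a mitochondrial acyl-CoA thioesterase, at 1.44 (adjusted p = 0.0022), and Pdk4, which restrains pyruvate oxidation, at 1.63. The difference between male and female labelled knockout effects called 0 members and 0% of all genes on HF, where 0 members were under 0.05 unadjusted. On HFCF it called 0 members and 0% of all genes, with 1 member under 0.05 unadjusted, Cyp4a31 at 0.93 (SE 0.44, adjusted p = 0.509). The difference between the diet effects of the sexes called 0 members in controls, where 0.00646% of all genes were called, and 0 in labelled knockouts, where 0.013% were, with 0 and 1 members under 0.05 unadjusted. Within females the labelled knockout effects on HFCF and HF, and on HF and LF, gave 0 calls each, 0% of all genes, and 0 members under 0.05 unadjusted. DESeq2 called 0 members in these 6.

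Cyp4a10 and Cyp4a14 lie next to each other on opposite strands and varied together within groups. Over the 48 libraries, after taking out each group's mean, Pearson's r of their log2 levels was 0.875 and Spearman's rho 0.880, a description over libraries that share diet and processing. Cyp4a10 tracked its own near-copies less closely, with r of 0.299 for Cyp4a31 and 0.371 for Cyp4a32. The Cyp4a12 pair had an r of 0.534, with both genes near 0 in the female libraries that enter it. The balance of Cyp4a14 to Cyp4a10 differed by group even so. The ratio of their CPM ranged from 1.46 to 1.88 in HF male controls, from 0.804 to 1.99 in HF male labelled knockouts, from 0.763 to 1.17 in HFCF male controls and from 0.518 to 0.845 in HFCF male labelled knockouts. Female groups had mean ratios of 1.36 to 1.73 on all 3 diets. Their lowest libraries reached 0.804 in LF controls and 1.16 in LF labelled knockouts, inside the range of the HFCF male controls.

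**Figure D4:**
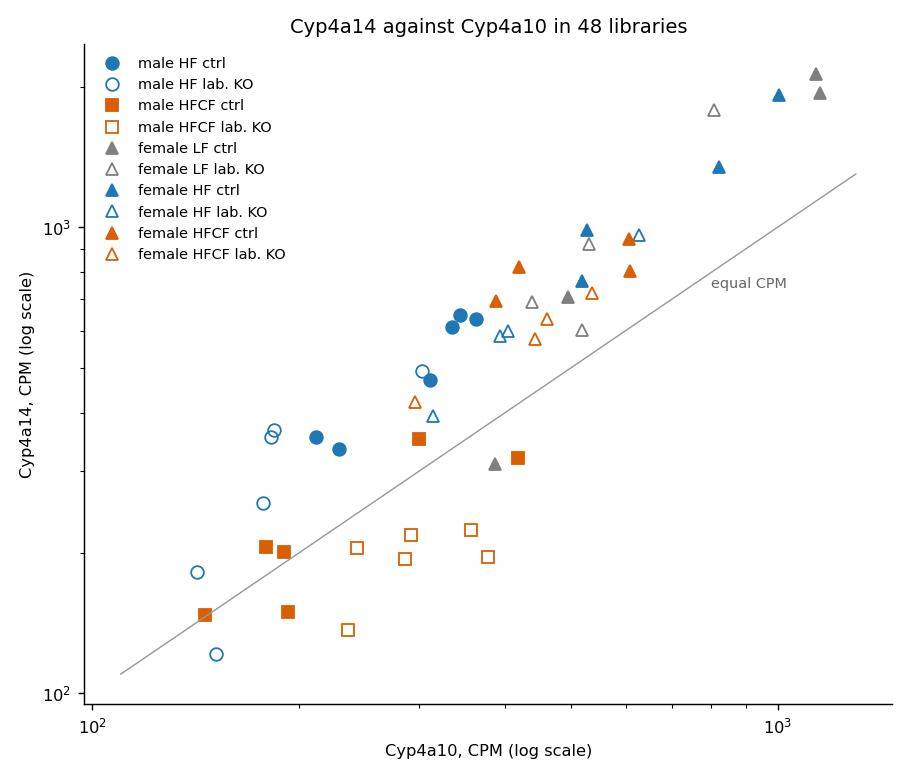
Cyp4a14 against Cyp4a10 in CPM in all 48 libraries on log axes, with the line of equal CPM. Males on HFCF lie around or below the line, with mean ratios of 0.988 and 0.667, and the other 8 groups have mean ratios of 1.36 or more. Among those 8, HF male labelled knockouts and LF female controls each have a lowest ratio of 0.804.

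The genes most like Cyp4a10 within groups, among 13440 genes with a mean of 1 CPM or more, were Abhd6 (r 0.857), Retsat (r 0.848), Decr1 (r 0.839) and Slc25a20 (r 0.834). Abhd6 is a monoacylglycerol lipase, Retsat a retinol saturase, Decr1 a mitochondrial enzyme of unsaturated fatty acid oxidation and Slc25a20 the carnitine-acylcarnitine carrier. For Cyp4a14 they were Decr1 (r 0.855), Retsat (r 0.848), Ech1 (r 0.814) and Slc25a20 (r 0.801). The LF female controls show it: Retsat had 130.2, 249, 592 and 579.5 CPM in the same 4 mice in which Cyp4a10 had 386, 494, 1139 and 1154 CPM. For Cyp4a12a the highest values were lower, with the complement gene C6 at 0.618 and Gpr132 at 0.559. Over the 10 group means, which differ in sex, diet and virus, the nearest were Rsph4a (r 0.944) and Acot1 (r 0.942) for Cyp4a10, Cbr1 (r 0.944) and Slc16a5 (r 0.939) for Cyp4a14, and C6 (r 0.992) and Nat8f5 (r 0.991) for Cyp4a12a.

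Other PPARA targets were partly called on the same side as Cyp4a10 or Cyp4a14. In HF males the labelled knockouts had 0 of 26 tested targets called higher and 12 lower, with a median log2 difference of -0.227 beside 0 over all genes. Pdk4 averaged 7.86 against 27.9 CPM (-1.84), Vnn1, a pantetheinase, 51.5 against 164 CPM (-1.67), and Acot2 10.6 against 29.0 CPM (-1.45). On HFCF the male labelled knockouts had 0 of 27 higher and 2 lower, Vnn1 at -1.33 and Eci1 at -0.46. In females there were 0 calls on LF and on HF, and 1 on HFCF, Vnn1 at -1.03 (adjusted p = 0.0422). For HFCF against HF, 0 targets were called higher and 11 of 27 lower in male controls (median -0.22), and 4 higher and 11 lower of 26 in male labelled knockouts (median -0.167). In the labelled knockouts Pdk4 at 1.53, Acot2 at 1.24 and Acot1 at 0.77 were among the 4 called higher, the side on which Cyp4a10 was called. Fabp1, the liver fatty acid-binding protein, was among the 11 called lower, at -0.44. That was the side of Cyp4a14, which was not called (-0.59). Of all genes 41.7% were called in this comparison, 21.6% higher. These 2 diet comparisons share their HF and HFCF groups with the labelled knockout comparisons, so their values are not separate evidence. In female controls, where no Cyp4a gene was called, 1 of 27 targets was called higher and 16 lower on HFCF than on HF (median -0.46). Between the sexes on HF, 1 of 26 targets was called higher and 11 lower in control males (median -0.271), with Acot1 at 30.8 against 75.8 CPM (-1.30). In HF labelled knockouts 0 were called higher and 5 of 26 lower (median -0.179), in HFCF controls 0 and 3 of 27 (median -0.031), and in HFCF labelled knockouts 0 and 1 of 27 (median -0.108). Over all genes the medians of these comparisons were between -0.020 and 0.007.

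**Figure D5:**
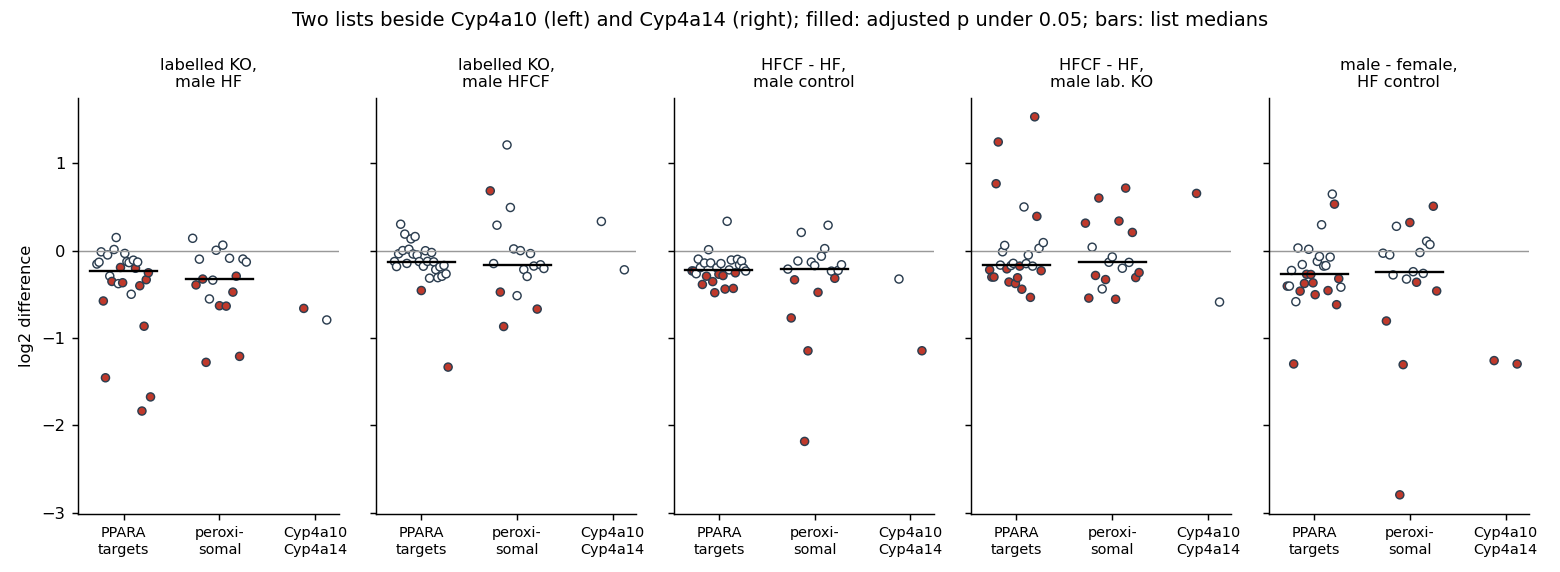
Log2 differences of the other PPARA targets, the peroxisomal genes and Cyp4a10 and Cyp4a14 in 5 comparisons; filled symbols have an adjusted p under 0.05 and bars are list medians. In HF males, 12 of 26 other targets and 8 of 17 peroxisomal genes are called lower in the labelled knockouts.

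The enzymes that act after the omega step moved in both directions. In HF males 4 of 7 tested alcohol and aldehyde dehydrogenases were called higher in the labelled knockouts and 1 lower. The lower one was Aldh3a2, the fatty aldehyde dehydrogenase of this route, at 576 against 1058 CPM (-0.88, adjusted p = 1e-06). Adh7 and Adh4 were higher by 0.69 and 0.68. On HFCF Aldh3a2 was also called lower in male labelled knockouts, at -0.56. For HFCF against HF in male controls 0 of 7 were called higher and 5 lower. Within groups, Aldh3a2 had an r of 0.746 with Cyp4a10 and 0.745 with Cyp4a14.

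Peroxisomal genes for shortening dicarboxylic acids were mostly lower where they were called in HF males. In HF male labelled knockouts 0 of 17 were called higher and 8 lower (median -0.325), including the thiolase Acaa1b at 942 against 2274 CPM (-1.28) and Pex11a, which divides peroxisomes, at -1.21. For HFCF against HF, 0 were called higher and 6 lower in male controls, and 5 higher and 6 lower in male labelled knockouts. Acot3, which releases long-chain acids from coenzyme A, averaged 9.16 CPM on HFCF against 41.7 CPM on HF in male controls (-2.18). Between the sexes in HF controls 2 were called higher in males and 5 lower, with Acot3 at 41.7 against 291 CPM (-2.79) and Acot4 at -1.30. In HFCF controls 0 were called higher and 3 lower, with Acot3 at -3.51 and Acot4 at -1.52.

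Of 15 other Cyp4 genes listed, 12 were found and 8 tested in HF males, where 3 were called higher in labelled knockouts and 2 lower. Cyp4f14, which hydroxylates leukotriene B4, averaged 238 CPM against 118 CPM (1.01, adjusted p = 7.5e-05), opposite in direction to Cyp4a10. Cyp4f15 and Cyp4f13 rose by 0.54 and 0.34, and Cyp4f18 and Cyp4f17 fell by 0.83 and 0.43. Of the 4 electron donors, Cyb5r3 alone was called there, at -0.22. Por, the reductase that all microsomal P450 enzymes need, averaged 333 CPM in HF male controls against 799.9 CPM in HF female controls (-1.26). Ppara itself averaged 176 CPM in HFCF and 258 CPM in HF male controls and was called lower, at -0.54.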

How the data were processed

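Whole liver RNA was sequenced from non-strand-specific libraries, per the labels' protocols. Reads were aligned with STAR 2.6.1 to GRCm38 and counted with HTSeq 0.6.1, per the submitters' processing notes. The authors deposited raw read counts per gene in 11 tables, with gene lengths. These were joined by gene identifier: 1341082 values stood in more than 1 table and 0 differed. Counts were scaled by TMM, and CPM, CPM per kb of deposited gene length and log2 CPM (prior count 1) were computed. Each comparison was fitted with edgeR 4.0.16 (R 4.3.3) on its own groups, after edgeR's filter on low counts. A call is an adjusted p under 0.05 (Benjamini-Hochberg over all genes tested), and an SE is the log2 difference divided by the root of F. The same fits were also run on simulated counts for some of the comparisons. Those counts had the same spread for every gene, unlike the data, and the outcome is not given here. DESeq2 1.42.0, other scaling, no filter, 1 fit of all groups, a replicate block, summed near-copies and leaving out each library were alternatives. The 6 members are named throughout, and of every other list at most 3 called genes in each direction, by size, with the 4 genes most like Cyp4a10, Cyp4a14 and Cyp4a12a. Members and lists were chosen with earlier results of these data known. Sequences come from the reference genome and its annotation, whose coordinates matched 97.3% of the listed genes. 1 gene of a list is not reported here.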

Additional observations from a re-analysis of the deposited data

Results flagged for a closer look

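Of 49 pairs of a gene and a group with 4 to 10 libraries, 3 had 1 library far from the others of its group, by the gap to its nearest neighbour against the whole range of the group. Chance alone gives about 1 in 20 such pairs. Cyp4a10 was 302.8 CPM in HF male labelled knockout 5, and the next highest of that group had 183.8 CPM. Cyp4a12b was 14.92 CPM in HF male labelled knockout 6, and the next highest had 2.837 CPM. Cyp4a14 was 137 CPM in HFCF male labelled knockout 3, and the next lowest had 194.5 CPM.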

How the results depend on the processing

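No log2 difference of a member with an unadjusted p under 0.05 changed direction under any alternative. Of the values recomputed for these, 697 kept their side of the threshold, 41 came to pass it and 31 no longer did. The number of members called for the labelled knockouts against controls in HF males, 2, was 1 with DESeq2 size factors, 0 with all 10 groups in 1 fit and 1 with near-copies summed, where Cyp4a10, Cyp4a31 and Cyp4a32 together differed by -0.61 (adjusted p = 0.0119). Female diet comparisons with 0 members called gained some. HFCF against HF in controls had 2 with DESeq2's Wald test and 1 with no filter on low counts, and in labelled knockouts 1 with each of Wald test, no filter and 1 fit. HF against LF in labelled knockouts had 2 with the Wald test, 1 with no filter and 1 in 1 fit. HFCF against LF had 1 with the Wald test and 1 with no filter in controls, and 3 with no filter, 1 in 1 fit and 1 with the replicate block in labelled knockouts. The sexes in HFCF controls had 5, which became 3 with the replicate block and 3 of 3 rows with near-copies summed. The difference between labelled knockout effects on HFCF and HF in males had 0, and 1 with the Wald test. The cause of these changes was not tested. Leaving out 1 library at a time gave 1 to 4 members for the labelled knockouts on HF in males and 0 to 1 on HFCF, 2 to 4 for the diets in male controls and 3 to 5 in male labelled knockouts, and 0 to 1 for the difference between these. In females it gave, for HFCF against HF, 0 to 2 in controls and 0 to 1 in labelled knockouts, for HF against LF 0 to 1 in labelled knockouts, and for HFCF against LF 0 to 2 in controls and 0 to 1 in labelled knockouts. The libraries were female HF control 1 (Cyp4a14 adjusted p = 0.0108), HFCF labelled knockout 1 (Cyp4a31, 0.00437), LF labelled knockout 1 (Cyp4a32, 0.0398), LF control 1 (Cyp4a14, 0.0262) and HFCF labelled knockout 3 (Cyp4a32, 0.0206). No label says that replicate numbers pair the samples, and in no comparison did all same-numbered pairs correlate above 0.1. Single pairs reached an r of 0.374, between labelled knockouts and controls in HF females. Whether mice shared litters, cages or days was not tested, so the replicate block is kept as an alternative only. Counts over all genes moved by more than 1.5 times in several fits. With the replicate block, HFCF against HF in females went from 4526 to 0 in controls and from 2118 to 1180 in labelled knockouts, HFCF against LF in female controls from 5199 to 2036, HF against LF in female labelled knockouts from 22 to 9, the sexes from 2624 to 1677 and 2045 to 1053 on HF and from 396 to 118 and 811 to 145 on HFCF, labelled knockouts from 324 to 165 in HFCF males and from 8 to 0 in HFCF females, and the male difference between diets from 235 to 127. In 1 fit of all groups the labelled knockouts gave 1697 of 2591 in HF males, 195 of 324 in HFCF males and 2, 19 and 82 in LF, HF and HFCF females. That fit gave 4199 for HFCF against HF and 4178 (main value 1754) for HFCF against LF in female labelled knockouts, 910 (99) and 514 (22) for HF against LF, 1910 for the sexes in HFCF labelled knockouts, and 12 for the male difference between diets. The Wald test gave 669 for HFCF males, 7, 60 and 82 for LF, HF and HFCF females, 636 and 485 for HF against LF, 767 and 1519 for the sexes on HFCF, and 599 for the male difference between diets. With no filter, HF against LF gave 185 and 124, and labelled knockouts 1 and 26 in HF and HFCF females. The remaining contrasts of contrasts had at most 2 calls, and at most 169 under these alternatives. Leaving out 1 library gave 185 to 1052 for labelled knockouts in HFCF males and 0 to 19 in HFCF females; for HFCF against HF 2217 to 5429 (main value 3225) in male controls, and 2454 to 6530 and 866 to 4402 in female controls and labelled knockouts; for HF against LF 10 to 112 and 0 to 124, and for HFCF against LF in labelled knockouts 681 to 3587. For the sexes it gave 1340 to 5053 and 1278 to 2002 on HF and 183 to 638 and 262 to 1146 on HFCF, for the male difference between diets 119 to 412, and for the remaining contrasts of contrasts up to 287 (sexes, labelled knockout effect, HF), 1 (the same on HFCF), 1699 and 43 (sexes, diet effect, controls and labelled knockouts). Depth limits Cyp4a12a and Cyp4a12b in females, which had 0 to 90 reads in a group.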
